A study of Homo sapiens with 12 samples.

Results

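Tight junction genes and the epithelial transcription factor ELF3 were followed in 2 human lung adenocarcinoma lines by taking every array probe that carried the symbol of CLDN1, CLDN3, CLDN4, CLDN7, OCLN, TJP1, F11R, EPCAM, ELF3 or GRHL2. Of these 10 genes, 9 had a probe, 13 probes in all, against 20046 genes with a probe on the whole array. F11R, which encodes the junctional adhesion molecule JAM-A, matched no probe symbol and was not analysed here. After a filter on detection, 11 of the 13 probes and 8 of the 9 genes were tested among 11808 genes. The 8 tested genes were CLDN1, CLDN3, CLDN4, CLDN7, TJP1, EPCAM, ELF3 and GRHL2.

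RNA from 12 cultures was hybridised to 1-colour Illumina bead arrays, with 3 biological replicates in each of 4 groups. HCC827-Del-TM (EGFR L747-S752/T790M) received 2.5 µM decitabine and 1 µM vorinostat, or DMSO as its control, for 72 h. HCC827-Del (EGFR L747-S752) received the same drug pair, or DMSO, for the same time. Decitabine inhibits DNA methyltransferases and vorinostat inhibits histone deacetylases, and as they were given together no difference can be assigned to 1 of them. Both lines share an activated EGFR, and the labels do not say whether each is 1 clone. Cultures given the drug pair are called treated below, and cultures given DMSO are called controls.

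Tight junctions seal the space between neighbouring epithelial cells. Claudins and occludin span the membrane, ZO-1 (the product of TJP1) ties them to the actin cytoskeleton, and EPCAM binds claudin-7 and steadies claudins at the cell surface. ELF3, an ETS factor largely restricted to epithelia, and GRHL2, a grainyhead factor, activate epithelial genes, while factors of the SNAI and ZEB families bind the E-box CAGGTG and repress junction genes. In airway and lung carcinoma, loss of these genes is a usual sign of a shift away from the epithelial state. The cultures carried epithelial markers: KRT7, KRT8, KRT18, KRT19, CDH1 and EPCAM were detected on all 12 arrays. Of the markers of other cell types, PTPRC, CD3E, CDH5, COL3A1, DCN and PDGFRB were detected on 0 arrays, PECAM1, VWF and DES on 3, and CD14, COL1A1 and ACTA2 on 12.

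The promoters of CLDN1, which changed most, of ELF3, called in opposite directions, and of CLDN7 and CLDN3 are shown first. RefSeq windows (GRCh38.p14) of 300 bases, from 250 before to 50 after a transcript start, were described for 7 of the 10 genes, 12 windows in all. CpG dinucleotides, which DNA methyltransferases methylate, are in capitals in the windows of CLDN1 (chr3:190322397-190322696, minus strand) and ELF3 (chr1:202010337-202010636, plus strand):
CLDN1 promoter: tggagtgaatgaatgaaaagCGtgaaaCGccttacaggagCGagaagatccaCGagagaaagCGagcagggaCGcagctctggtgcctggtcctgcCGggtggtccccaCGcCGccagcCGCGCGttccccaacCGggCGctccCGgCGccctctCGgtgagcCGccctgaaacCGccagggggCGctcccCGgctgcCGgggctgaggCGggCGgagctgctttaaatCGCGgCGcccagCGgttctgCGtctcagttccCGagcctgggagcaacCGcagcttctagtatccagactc
ELF3 promoter: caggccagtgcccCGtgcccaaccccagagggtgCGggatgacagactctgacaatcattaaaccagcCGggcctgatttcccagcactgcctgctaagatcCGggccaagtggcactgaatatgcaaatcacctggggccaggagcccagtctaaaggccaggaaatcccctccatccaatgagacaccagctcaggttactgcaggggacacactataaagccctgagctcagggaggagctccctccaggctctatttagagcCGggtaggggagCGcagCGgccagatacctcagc
The CLDN1 window held 31 CG, more than 79.3% of the 35116 windows in the table, whose median was 14. The ELF3 window held 7 CG, more than 36.8% of windows. Those of TJP1 held 34, 36, 21 and 3 CG, that of CLDN3 24, that of CLDN4 5 and the downstream one of CLDN7 30. No relation between the number of CG and the change after treatment was tested. Matches to CAGGTG on either strand (CAGGTG or CACCTG), with no overlap between them, are in capitals in the window at the downstream start of CLDN7 (chr17:7262429-7262728, minus strand) and in that of CLDN3 (chr7:73770221-73770520, minus strand):
CLDN7 promoter: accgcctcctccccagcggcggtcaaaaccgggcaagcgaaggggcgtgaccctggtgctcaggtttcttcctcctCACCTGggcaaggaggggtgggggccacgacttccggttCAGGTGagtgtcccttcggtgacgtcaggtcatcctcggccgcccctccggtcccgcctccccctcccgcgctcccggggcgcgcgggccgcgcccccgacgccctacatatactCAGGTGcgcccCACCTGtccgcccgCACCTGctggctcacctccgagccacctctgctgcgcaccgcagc
CLDN3 promoter: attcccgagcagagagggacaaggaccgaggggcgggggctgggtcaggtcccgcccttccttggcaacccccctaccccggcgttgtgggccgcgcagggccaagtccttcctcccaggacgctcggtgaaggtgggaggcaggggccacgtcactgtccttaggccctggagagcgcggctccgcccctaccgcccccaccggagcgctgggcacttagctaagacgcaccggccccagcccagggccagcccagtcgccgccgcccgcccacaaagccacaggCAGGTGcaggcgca
The CLDN7 window held 5 such matches, a number reached or passed in 0.094% of all windows (33 of 35116). The CLDN3 and ELF3 windows held 1 match each, and the windows of CLDN1 and CLDN4 held 0, as did the window at the upstream start of CLDN7 (chr17:7263164-7263463, 10 CG), while 20.6% of all windows held at least 1. The windows of OCLN held 1 and 2 matches, and those of TJP1 held 1, 0, 0 and 0. CLDN3 and CLDN4 are neighbours on chromosome 7, with 0 annotated genes between them. The matches describe the sequence, and the arrays measured neither methylation nor the binding of a factor.

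Values below are log2 intensities after background correction and quantile normalization, and a change is a difference of log2 values between group means with its standard error (SE). A gene was called higher or lower when its adjusted p was under 0.05 in limma's test over all 11808 genes, and the groups are bulk cultures, in which fewer cells with a transcript and less transcript per cell cannot be told apart. The arrays detected 16251 to 19671 probes each, with 18617 or more on the treated HCC827-Del arrays and 18055 or fewer on all others. Log2 values of replicates correlated across genes at 0.995 to 0.996, and the median SE of a change was 0.0955 (0.135 for a difference between 2 changes). With 3 arrays a group, the size of the experiment limits the precision of these values.

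CLDN1 rose and GRHL2 fell after treatment in both lines, and ELF3 was called in opposite directions. In HCC827-Del-TM, 3 of 8 were higher after treatment (CLDN1, CLDN7 and ELF3) and 2 were lower (CLDN3 and GRHL2), against backgrounds of 21.7% and 24.1% of all genes tested. In HCC827-Del, 1 of 8 was higher (CLDN1) and 4 were lower (CLDN4, TJP1, ELF3 and GRHL2), against 24.8% and 26.5% of all genes. The median change of the 8 genes was 0.07 in HCC827-Del-TM and -0.17 in HCC827-Del, beside medians of -0.01 and -0.03 over all genes. Their median absolute change was 0.35 in HCC827-Del-TM and 0.30 in HCC827-Del, beside 0.23 and 0.26 over all genes.

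**Figure D1:**
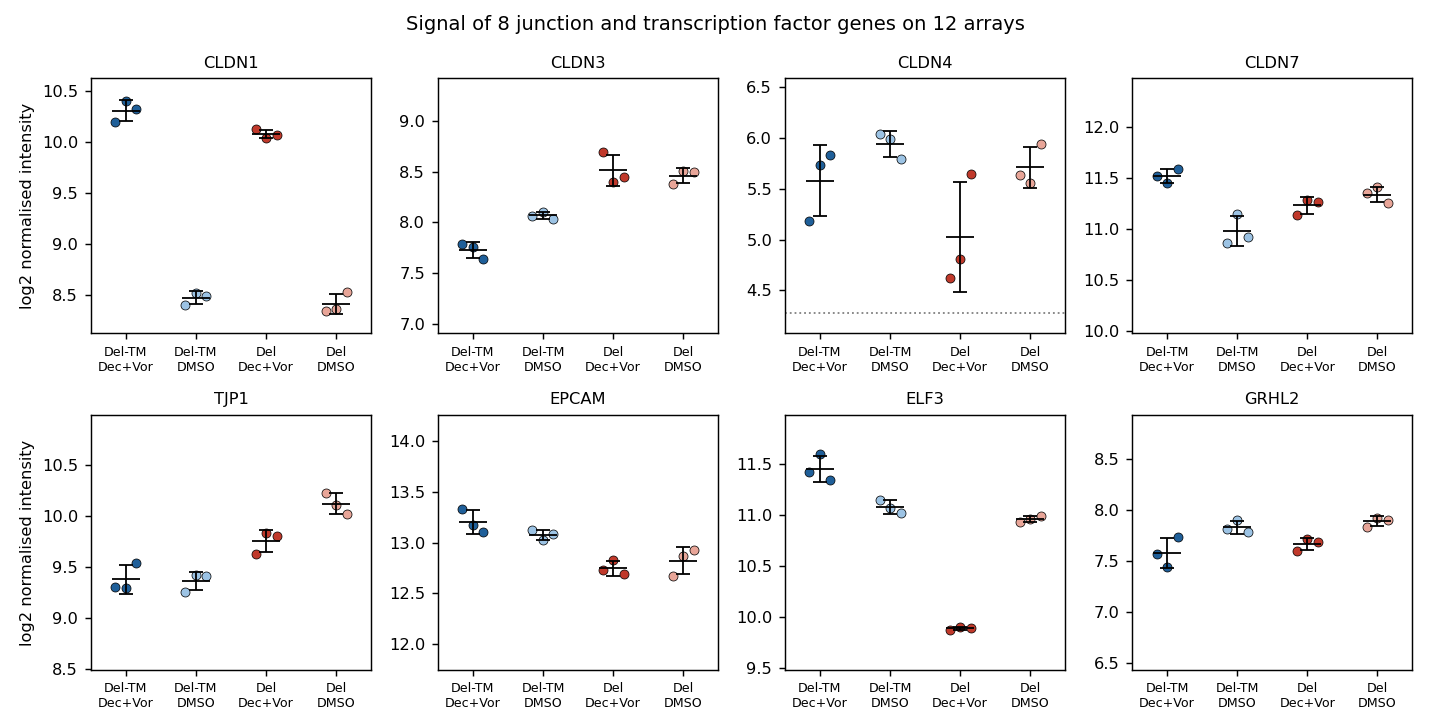
Log2 normalised intensity of the 8 tested genes on the 12 arrays, with treated (Dec+Vor) left of control (DMSO) and HCC827-Del-TM left of HCC827-Del. Points are arrays and bars are the mean and SD of 3 replicates; each vertical axis spans the same number of log2 units but starts at its own level, and the dotted line for CLDN4 is the median of undetected probes, 4.28. CLDN1 is high in both treated groups, and ELF3 is lowest in treated HCC827-Del.

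The change after treatment differed between the lines, tested as the change in HCC827-Del-TM minus that in HCC827-Del, for 4 of the 8 genes. It was more positive in HCC827-Del-TM for 3 (ELF3, CLDN7 and TJP1) and more negative for 1 (CLDN3), against 20.3% and 22.3% of all genes. Before treatment, 1 of 8 genes was higher in HCC827-Del-TM than in HCC827-Del (EPCAM) and 3 were lower (CLDN3, CLDN7 and TJP1), against 16.2% and 20.3% of all genes. After treatment, 5 were higher in HCC827-Del-TM (CLDN1, CLDN4, CLDN7, EPCAM and ELF3) and 2 were lower (CLDN3 and TJP1), against 29.4% and 33.7% of all genes. Under median scaling CLDN1 (adjusted p = 0.259), CLDN4 (0.0882) and CLDN7 (0.0518) lost that call, which left 2 higher. GRHL2 was then called lower (0.0376), and the EPCAM call among controls ended (0.146). The comparisons share groups, so their counts are not independent of each other.

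**Figure D2:**
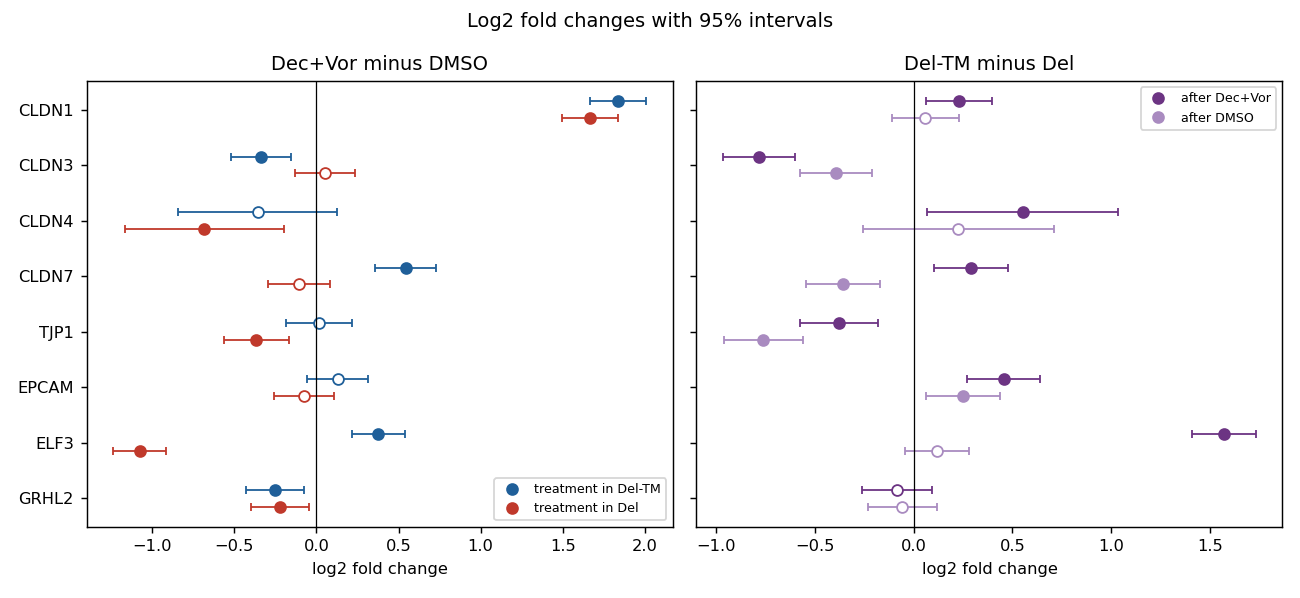
Log2 fold changes of the 8 genes with 95% intervals. The left panel gives treatment against DMSO in HCC827-Del-TM (upper point of each gene) and HCC827-Del (lower point), and the right panel gives HCC827-Del-TM against HCC827-Del after treatment (upper) and after DMSO (lower). Filled points passed the test at an adjusted p under 0.05. ELF3 lies on opposite sides of 0 in the lines on the left, 0.38 in HCC827-Del-TM and -1.08 in HCC827-Del.

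Among the claudins, CLDN1, a barrier-forming claudin of many epithelia, rose in both lines. Its values were 10.20, 10.41 and 10.33 in treated HCC827-Del-TM, against 8.40, 8.52 and 8.50 in its controls. In treated HCC827-Del they were 10.13, 10.04 and 10.07, against 8.35, 8.37 and 8.53 in its controls. All 6 treated arrays lay above all 6 controls. The change was 1.84 in HCC827-Del-TM (SE 0.0785, 3.58-fold, adjusted p = 7.94e-10) and 1.67 in HCC827-Del (SE 0.0785, 3.18-fold, adjusted p = 7.82e-10). Only 74 of the 11808 genes had a larger positive change in HCC827-Del-TM, and 206 in HCC827-Del. The changes differed between the lines by 0.17 (95% interval -0.07 to 0.41, adjusted p = 0.237). Treated HCC827-Del-TM exceeded treated HCC827-Del by 0.23 (adjusted p = 0.0202), a call that was lost under median scaling (0.15, adjusted p = 0.259). That call was also lost without replicate 2 of treated HCC827-Del (adjusted p = 0.0623), without replicate 2 of treated HCC827-Del-TM (0.0878) and without its replicate 3 (0.0546). The control lines differed by 0.06 (adjusted p = 0.605).

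CLDN3, which like CLDN4 is a receptor for a Clostridium perfringens toxin, was lowest in treated HCC827-Del-TM. There it read 7.79, 7.76 and 7.64, against 8.07, 8.10 and 8.04 in its controls. In treated HCC827-Del it read 8.69, 8.40 and 8.45, against 8.38, 8.50 and 8.50 in its controls. The groups did not overlap in HCC827-Del-TM and overlapped in HCC827-Del. CLDN3 fell by 0.34 in HCC827-Del-TM (SE 0.0846, adjusted p = 0.00476), while the change in HCC827-Del was 0.05 (SE 0.0846, adjusted p = 0.635). The difference between these changes was -0.39 (adjusted p = 0.0174). HCC827-Del-TM was also lower than HCC827-Del among controls (-0.39, adjusted p = 0.00258), and the gap after treatment was -0.78 (adjusted p = 2.23e-06). The order of the 4 groups was treated HCC827-Del, control HCC827-Del, control HCC827-Del-TM and treated HCC827-Del-TM, and of these neighbours only the first pair did not pass the test.

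CLDN4, a claudin that tightens epithelia against sodium, gave a weak signal. It read 5.18, 5.73 and 5.83 in treated HCC827-Del-TM, against 6.04, 5.98 and 5.79 in its controls. In treated HCC827-Del it read 4.63, 4.81 and 5.64, against 5.64, 5.56 and 5.94 in its controls. The treated and control ranges overlapped in both lines, and replicate 1 of treated HCC827-Del was the 1 array of 12 on which the probe was not detected. Undetected probes (detection p of 0.5 or more) had a median of 4.28. CLDN4 fell by 0.68 in HCC827-Del (SE 0.225, adjusted p = 0.0208), a call that ended without replicate 1 or 2 of treated HCC827-Del (-0.48 and -0.57, adjusted p = 0.108 and 0.0826) or without replicate 3 of its controls (-0.58, adjusted p = 0.0783). Without background correction the fall was 0.23 (adjusted p = 0.0136). In HCC827-Del-TM the change was -0.36 (SE 0.225, adjusted p = 0.213), and the difference between the changes was 0.33 (adjusted p = 0.441). Treated HCC827-Del-TM exceeded treated HCC827-Del by 0.55 (adjusted p = 0.0459). That call was lost under 13 of 23 alternatives, with adjusted p up to 0.211 without replicate 1 of treated HCC827-Del, where the value was 0.35. Without replicate 3 of treated HCC827-Del it was 0.85. The control lines differed by 0.23 (adjusted p = 0.475).

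CLDN7, the claudin that EPCAM binds, was highest in treated HCC827-Del-TM and lowest in its controls. It read 11.53, 11.46 and 11.60 in treated HCC827-Del-TM, against 10.87, 11.15 and 10.93 in its controls. In treated HCC827-Del it read 11.14, 11.29 and 11.27, against 11.36, 11.41 and 11.26 in its controls. The groups stood apart in HCC827-Del-TM and overlapped in HCC827-Del. CLDN7 rose by 0.54 in HCC827-Del-TM (SE 0.087, adjusted p = 0.000173), with a change of -0.11 in HCC827-Del (SE 0.087, adjusted p = 0.325). The difference between the changes was 0.65 (adjusted p = 0.000832). HCC827-Del-TM was lower than HCC827-Del among controls (-0.36, adjusted p = 0.00548) and higher after treatment (0.29, adjusted p = 0.00962, lost under median scaling at 0.0518).

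Occludin (OCLN), the membrane protein for which tight junctions are often stained, was not detected by its 2 probes. Both probes had detection p between 0.17 and 0.98 on all 12 arrays, and their log2 values of 4.19 to 4.49 lay at the level of undetected probes. The level of its transcript cannot be read from these probes, and no change was tested. The RefSeq windows of its 2 starts held 26 and 28 CG.

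TJP1 encodes ZO-1, the scaffold under the claudin strands, and was highest in HCC827-Del controls. The tested probe (ILMN_1691499) read 9.30, 9.29 and 9.54 in treated HCC827-Del-TM, against 9.25, 9.42 and 9.41 in its controls. It read 9.63, 9.83 and 9.80 in treated HCC827-Del, against 10.22, 10.11 and 10.02 in its controls. All 6 HCC827-Del-TM arrays lay below all 6 HCC827-Del arrays. TJP1 fell by 0.37 in HCC827-Del (SE 0.0927, adjusted p = 0.0046), with a change of 0.02 in HCC827-Del-TM (SE 0.0927, adjusted p = 0.904). HCC827-Del-TM differed from HCC827-Del by -0.76 among controls (adjusted p = 2.31e-05) and by -0.38 after treatment (adjusted p = 0.00276).

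The other TJP1 probe (ILMN_2403006), tested among all 19833 kept probes, had the same direction between lines. It differed by -0.62 between control lines (adjusted p = 5.32e-05) and by -0.44 between treated lines (adjusted p = 0.000358), and fell by 0.34 in HCC827-Del (adjusted p = 0.00381). In HCC827-Del-TM its change was -0.15 (adjusted p = 0.157). The share of kept probes called in either direction was 30.4% between control lines, 56.9% between treated lines, 45.3% for the treatment of HCC827-Del and 39.5% for that of HCC827-Del-TM. The difference between the changes was 0.38 on the tested probe (adjusted p = 0.0305) but 0.19 on the other (adjusted p = 0.227), where 36.0% of kept probes were called. On the tested probe that difference also ended under median scaling (0.28, adjusted p = 0.25), without replicate 1 of treated HCC827-Del (0.32, adjusted p = 0.0755), without replicate 1 of its controls (0.33, adjusted p = 0.0726), without replicate 3 of treated HCC827-Del-TM (0.30, adjusted p = 0.081) and without replicate 1 of its controls (0.33, adjusted p = 0.0756).

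EPCAM, an adhesion molecule of simple epithelia, had 3 kept probes that differed in the size of its changes. The tested probe (ILMN_2160210) read 13.33, 13.17 and 13.11 in treated HCC827-Del-TM, against 13.12, 13.02 and 13.08 in its controls. It read 12.73, 12.83 and 12.69 in treated HCC827-Del, against 12.67, 12.87 and 12.93 in its controls. The 6 HCC827-Del-TM arrays lay above the 6 HCC827-Del arrays, and treated and control arrays overlapped in both lines. On that probe EPCAM was higher in HCC827-Del-TM by 0.46 after treatment (SE 0.086, adjusted p = 0.000375) and by 0.25 among controls (adjusted p = 0.0359). The control call ended under median scaling (adjusted p = 0.146) and without replicate 1 or 2 of HCC827-Del controls (0.18 and 0.27, adjusted p = 0.141 and 0.0515) or replicate 1 or 3 of HCC827-Del-TM controls (0.23 and 0.25, adjusted p = 0.103 and 0.0774). Treatment changed it by 0.13 in HCC827-Del-TM (adjusted p = 0.242) and by -0.08 in HCC827-Del (adjusted p = 0.487), with a difference of 0.21 (adjusted p = 0.194).

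Another EPCAM probe (ILMN_2160209) gave larger differences. It read 9.40, 8.96 and 9.29 in treated HCC827-Del-TM, against 8.64, 8.74 and 8.73 in its controls, and these groups did not overlap. In treated HCC827-Del it read 8.20, 8.08 and 8.26, against 8.50, 8.46 and 8.38 in its controls. Its change was 0.52 in HCC827-Del-TM (adjusted p = 0.00146) and -0.27 in HCC827-Del (adjusted p = 0.0531), and these differed by 0.78 (adjusted p = 0.00112). The third probe (ILMN_3249032) changed by 0.09 in HCC827-Del-TM (adjusted p = 0.371) and by -0.20 in HCC827-Del (adjusted p = 0.0375), with a difference of 0.29 (adjusted p = 0.0427). After treatment HCC827-Del-TM was higher on all 3 probes, by 0.46 on the tested probe, by 1.04 on ILMN_2160209 (adjusted p = 1.64e-06) and by 0.37 on the third (adjusted p = 0.000747). Among controls the lines differed by 0.26 on ILMN_2160209 (adjusted p = 0.0805) and by 0.08 on the third (adjusted p = 0.486), neither called. With the mean over its probes in place of the brightest, EPCAM rose by 0.24 in treated HCC827-Del-TM (adjusted p = 0.0104), fell by 0.18 in treated HCC827-Del (adjusted p = 0.0413), and these changes differed by 0.43 (adjusted p = 0.00324).

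**Figure D3:**
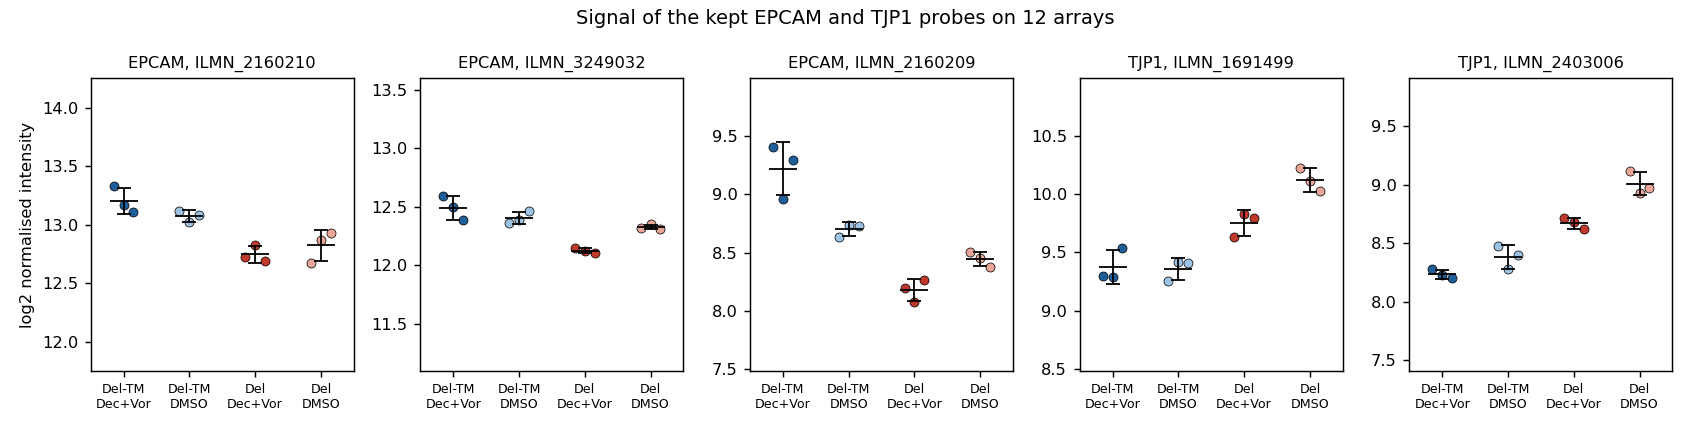
Log2 normalised intensity of the 3 kept EPCAM probes and the 2 kept TJP1 probes on the 12 arrays, with HCC827-Del-TM left of HCC827-Del and treated left of control. Points are arrays and bars are the mean and SD of 3 replicates. On the EPCAM probe ILMN_2160209 the treated HCC827-Del-TM arrays (8.96 to 9.40) lie above all others, and on both TJP1 probes all HCC827-Del-TM arrays lie below all HCC827-Del arrays.

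Of the transcription factors, ELF3 moved in opposite directions in the lines. It read 11.43, 11.60 and 11.35 in treated HCC827-Del-TM, against 11.15, 11.07 and 11.02 in its controls. In treated HCC827-Del it read 9.87, 9.90 and 9.90, against 10.94, 10.96 and 10.99 in its controls. No treated array overlapped its controls in either line, and the 3 treated HCC827-Del arrays lay at least 1 log2 unit under each of the other 9. The means were 11.46 ± 0.127 in treated HCC827-Del-TM, 11.08 ± 0.067 in its controls, 9.89 ± 0.017 in treated HCC827-Del and 10.96 ± 0.029 in its controls (SD, n = 3 each).

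ELF3 rose by 0.38 in HCC827-Del-TM (SE 0.0753, 1.30-fold, adjusted p = 0.00101). It fell by 1.08 in HCC827-Del (SE 0.0753, 2.11-fold, adjusted p = 5e-08), where 164 of the 11808 genes had a more negative change. The changes differed by 1.45 (SE 0.106, 95% interval 1.22 to 1.68, adjusted p = 2.45e-07), a difference that 84 genes exceeded in the same direction. After treatment ELF3 was 2.97-fold higher in HCC827-Del-TM than in HCC827-Del (1.57, adjusted p = 5.78e-10), and among controls the lines differed by 0.12 (95% interval -0.05 to 0.28, adjusted p = 0.254). The order was treated HCC827-Del-TM, control HCC827-Del-TM, control HCC827-Del and treated HCC827-Del, and the middle pair did not pass the test. These 4 calls held under every alternative run, with the difference between the changes at 1.37 or more.

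GRHL2, the grainyhead factor that binds claudin and cadherin genes, fell by a small amount in both lines. It read 7.57, 7.44 and 7.73 in treated HCC827-Del-TM, against 7.81, 7.91 and 7.78 in its controls. In treated HCC827-Del it read 7.60, 7.72 and 7.68, against 7.84, 7.93 and 7.91 in its controls. Every treated array lay below every control. The change was -0.25 in HCC827-Del-TM (SE 0.0819, adjusted p = 0.0223) and -0.22 in HCC827-Del (SE 0.0819, adjusted p = 0.0341), with a difference of -0.03 (95% interval -0.28 to 0.22, adjusted p = 0.874). Both calls were near the threshold. In HCC827-Del it ended under median scaling (-0.15, adjusted p = 0.328) and cyclic loess (-0.16, adjusted p = 0.111), and without replicate 1 or 3 of the treated arrays (adjusted p = 0.109 and 0.0626) or replicate 2 or 3 of the controls (0.0894 and 0.0811). In HCC827-Del-TM it ended without replicate 1 or 2 of the treated arrays (adjusted p = 0.0544 and 0.106) or replicate 2 of the controls (0.0811). Between lines GRHL2 differed by -0.08 after treatment (adjusted p = 0.392, called under median scaling at -0.28) and by -0.06 among controls (adjusted p = 0.634).

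Other genes of the same structures were described by lists of known members, whose counts stand against the shares of all genes called higher and lower given above (21.7% and 24.1% for treatment of HCC827-Del-TM, 24.8% and 26.5% for that of HCC827-Del). Of 19 other claudins, 7 passed the detection filter. In HCC827-Del-TM 3 of the 7 were higher after treatment and 1 was lower, with a median of 0.26. In HCC827-Del 4 were higher and 2 were lower, with a median of 0.36. CLDN14, a claudin known for its role in hearing, rose in both lines (0.34 and 0.68), as did CLDN23 (0.26 and 0.58), while CLDN9, also tied to hearing, fell in both (-0.49 and -0.73) and was detected on 1 of 3 treated HCC827-Del-TM arrays. The call of CLDN23 in HCC827-Del-TM ended under median scaling. CLDN11 was detected in treated HCC827-Del alone and read at least 1.03-fold higher there than in its controls. It passed the detection filter only through those 3 arrays, so its call, counted among the 4, is not support for a rise. CLDN12 changed by 0.32 in HCC827-Del-TM and by -0.31 in HCC827-Del, a difference of 0.63 (adjusted p = 0.000275), with the HCC827-Del call lost under median scaling. It was also higher in HCC827-Del-TM by 1.60 after treatment and by 0.97 among controls.

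Of 12 other membrane proteins of these junctions, 6 were tested. In HCC827-Del-TM 2 were higher after treatment and 0 lower, with a median of 0.12, and in HCC827-Del 3 were higher and 1 lower, with a median of 0.11. CXADR, the coxsackievirus and adenovirus receptor, rose in both lines (0.57 and 0.54), and so did LSR, which sits with tricellulin where 3 cells meet (0.49 and 0.67). CRB3, a Crumbs polarity protein gene, rose by 0.32 in HCC827-Del, with a change of 0.18 in HCC827-Del-TM that did not pass the test. MARVELD2, which encodes tricellulin, fell by 0.74 in HCC827-Del, with a change of -0.31 in HCC827-Del-TM (adjusted p = 0.0615), where 1 of 3 treated arrays detected it.

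The plaque and polarity proteins lie under the membrane with ZO-1, and 18 of 25 were tested. In HCC827-Del-TM 5 were higher after treatment and 3 lower, with a median of 0.03, while in HCC827-Del 4 were higher and 8 lower, with a median of -0.24. Their change was more positive in HCC827-Del-TM for 8 and more negative for 1, with a median difference of 0.26 beside 0.01 over all genes, where 20.3% of all genes were called more positive and 22.3% more negative. The calls of AMOT and PRKCI ended under both median scaling and cyclic loess, which left 6 more positive. The 4 largest falls in HCC827-Del were those of CGNL1 (-1.29), which encodes paracingulin, PATJ (-0.86), PALS1 (-0.74) and RAB13 (-0.69). PATJ and PALS1 belong to the Crumbs polarity complex, and RAB13 is a small GTPase of junction traffic. In HCC827-Del-TM these genes changed by -0.50, 0.03, -0.03 and 0.25, of which CGNL1 alone was called. PARD6A, of the PAR polarity complex, went the other way, with a change of -0.60 in HCC827-Del-TM (detected on 2 of 3 treated arrays) and 0.57 in HCC827-Del. AMOT, which encodes angiomotin, was undetected on all 3 HCC827-Del-TM control arrays and was at least 3.91-fold lower there than in HCC827-Del controls (adjusted p = 1.21e-09). After treatment it was at least 1.09-fold higher than in controls in HCC827-Del-TM (adjusted p = 0.000572).

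Of the genes that process EPCAM at the surface, 5 of 6 were higher after treatment in HCC827-Del-TM and 0 lower, against 21.7% and 24.1% of all genes, with a median of 0.36. In HCC827-Del 0 were higher and 1 was lower, with a median of -0.04. ST14, which encodes the protease matriptase, rose by 0.62 in HCC827-Del-TM (adjusted p = 5.25e-05). Its inhibitor gene SPINT1 changed by 0.58 in HCC827-Del-TM and by -0.69 in HCC827-Del, a difference of 1.27 (adjusted p = 1.42e-05). The sheddase genes ADAM10 (0.39) and ADAM17 (0.32) were higher after treatment in HCC827-Del-TM as well, but both calls and that of SPINT2 ended under median scaling, which left 2 of 6 higher. The change in HCC827-Del-TM exceeded that in HCC827-Del for 3 of the 6 genes by the test of the difference, against 20.3% of all genes, with a median difference of 0.39. Under median scaling ST14 (adjusted p = 0.0787) and SPINT2 (0.0676) lost that call, and SPINT1 alone of the 6 held it.

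Adherens junctions and desmosomes hold epithelial cells together below the tight junction. Of 10 adherens junction genes tested, 3 were higher and 1 lower after treatment in HCC827-Del-TM, and 2 were higher and 2 lower in HCC827-Del. NECTIN4, a nectin gene, was detected in treated HCC827-Del-TM alone and read at least 1.33-fold higher there than in its controls. It passed the detection filter only through those 3 arrays, so its calls, counted in this paragraph, are not support for a rise. CTNNA1, which encodes alpha-catenin, fell in both lines (-0.23 and -0.41), and its HCC827-Del-TM call ended under median scaling and cyclic loess. NECTIN2 rose by 0.21 in HCC827-Del, with a value of -0.01 in HCC827-Del-TM that did not pass the test. CDH1, the epithelial cadherin, rose in both lines (0.45 and 0.28), and JUP, which encodes plakoglobin, changed by 0.75 in HCC827-Del-TM and by -0.28 in HCC827-Del, a difference of 1.03 (adjusted p = 1.96e-06). The HCC827-Del calls of CDH1 and JUP ended under median scaling. After treatment 8 of the 10 were higher in HCC827-Del-TM than in HCC827-Del and 0 lower, against 29.4% and 33.7% of all genes. Under median scaling 3 of the 10 were higher. Of 9 desmosome genes, 4 were higher and 3 lower after treatment in HCC827-Del-TM, and 2 were higher and 3 lower in HCC827-Del. Under median scaling DSP and PKP2 lost their HCC827-Del-TM calls, which left 2 higher, and under cyclic loess PKP3 lost its own. PKP3, a plakophilin gene, fell in both lines (-0.32 and -0.91), and so did PPL, which encodes periplakin (-0.43 and -0.48). PKP2, another plakophilin gene, rose in both (0.25 and 0.88). EVPL, which encodes envoplakin, fell in both (-0.95 and -1.82), and DSC2, a desmosomal cadherin gene, rose in HCC827-Del-TM (0.84), as did DSG2 (0.52). DSG3 was detected in treated HCC827-Del alone and read at least 1.14-fold higher there than in its controls. It too passed the filter only through those 3 arrays, and its call, counted above, is not support for a rise.

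**Figure D4:**
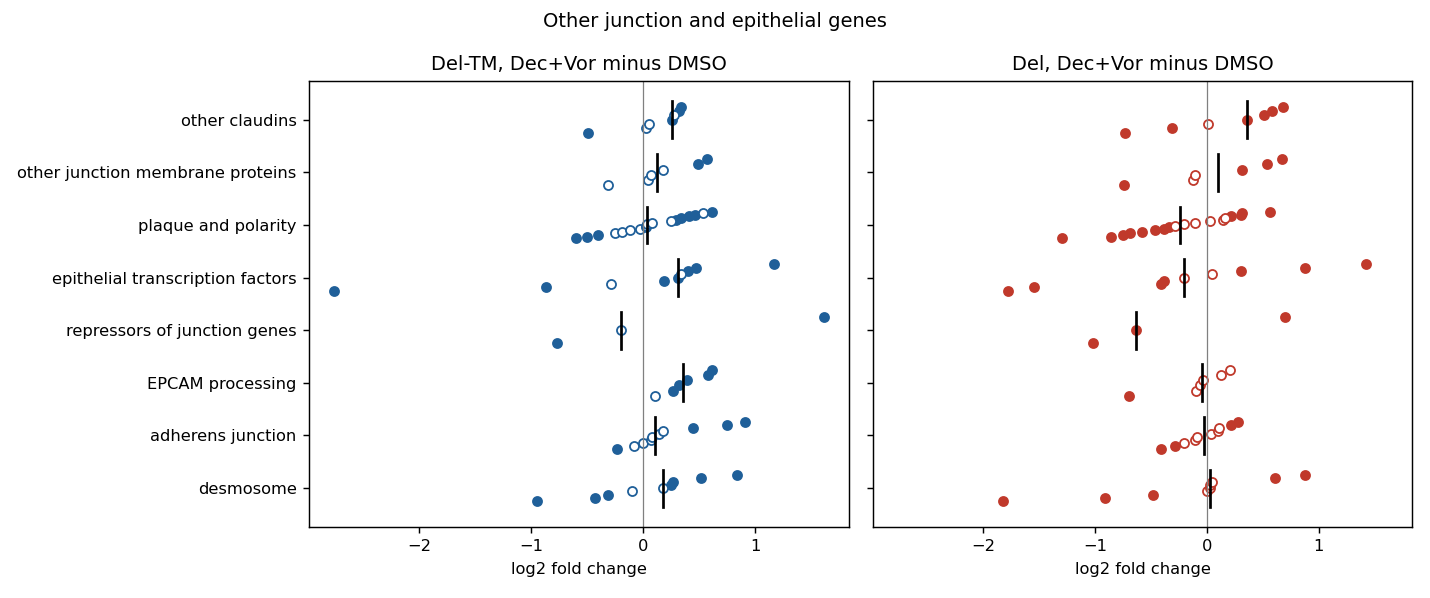
Log2 fold changes after treatment of the tested genes in 8 lists of junction and epithelial genes, in HCC827-Del-TM (left) and HCC827-Del (right). Each point is a gene, filled where it passed the test at an adjusted p under 0.05, and the black bar is the median of the list. The median of the EPCAM processing genes is 0.36 in HCC827-Del-TM and -0.04 in HCC827-Del.

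Other epithelial transcription factors moved in both directions. Of 9 tested, 5 were higher and 2 lower after treatment in HCC827-Del-TM, with a median of 0.31, against 21.7% and 24.1% of all genes. In HCC827-Del 3 were higher and 4 lower, with a median of -0.20, against 24.8% and 26.5%. Under median scaling EHF and OVOL2 lost their HCC827-Del-TM calls, which left 3 higher, and GRHL1 lost its HCC827-Del call under both median scaling and cyclic loess. SPDEF, an ETS factor of secretory cells, fell in both lines (-2.77, with detection on 2 of 3 treated arrays, and -1.78), and so did FOXA1, a pioneer factor of airway epithelium (-0.87 and -1.54). FOXA2, its close relative, rose in both (1.17 and 1.42), as did KLF4 (0.47 and 0.88). EHF, an ETS factor of the same epithelial subfamily as ELF3, changed by 0.31 in each line (adjusted p = 0.0342 in HCC827-Del-TM and 0.0317 in HCC827-Del) and was higher in HCC827-Del-TM by 1.39 in treated and by 1.39 in control cultures.

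Of 8 repressors of epithelial junction genes, 3 were tested, and SNAI1, SNAI3, ZEB1, ZEB2 and TWIST1 were detected on 0 arrays. SNAI2, which encodes Slug, averaged 7.03 in treated HCC827-Del-TM and 5.41 in its controls. In HCC827-Del it averaged 8.22 in treated cultures and 7.52 in controls. It rose by 1.62 in HCC827-Del-TM (adjusted p = 1.07e-08) and by 0.70 in HCC827-Del (adjusted p = 2.66e-05), and it was lower in HCC827-Del-TM both after treatment (-1.19) and among controls (-2.11). TWIST2 fell in both lines (-0.77 and -0.63), and TCF3, which encodes E2A, fell by 1.02 in HCC827-Del, with a change of -0.20 in HCC827-Del-TM (adjusted p = 0.171). The part of these factors in the levels of the junction genes was not tested.

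Likeness of expression was measured as the root mean square difference between 2 genes over the 12 arrays, after each gene's mean was subtracted. The 5 genes most like ELF3 were RAB40C (0.0986), LTBP3 (0.111), EFNA1 (0.115), DSCAML1 (0.137) and AUH (0.141), where ELF3 itself had an SD of 0.612 over the arrays. In HCC827-Del these 5 genes changed by -0.83 (AUH) to -1.14 (DSCAML1) after treatment. In HCC827-Del-TM their changes were 0.14 (EFNA1, adjusted p = 0.138) to 0.41 (AUH, adjusted p = 0.000801), and those of EFNA1 and DSCAML1 did not pass the test. They were picked for this likeness, so their changes are a description.

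**Figure D5:**
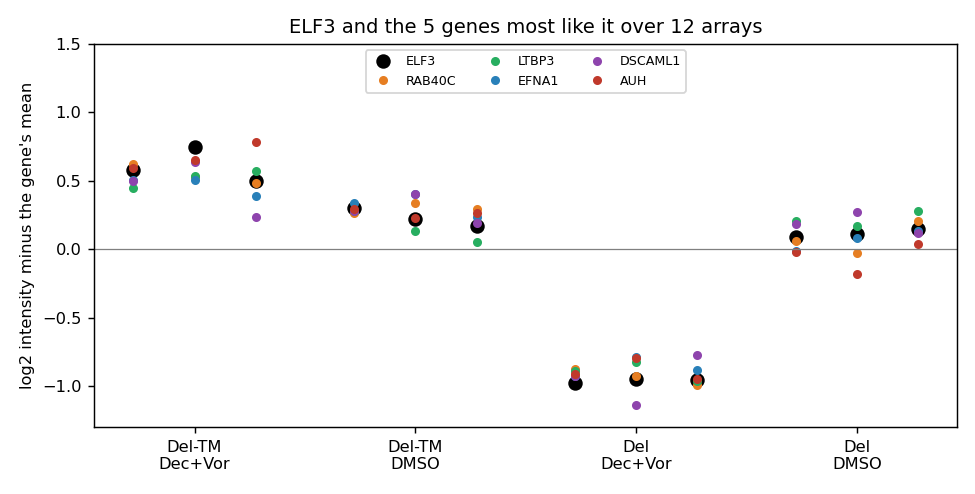
Log2 intensity of ELF3 and of the 5 genes most like it, each minus its mean over the 12 arrays, by group (horizontal axis, 3 arrays each). Large black points are ELF3. All 6 genes are lowest in the 3 treated HCC827-Del arrays.

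The gene most like each other member was ATF3 for CLDN1 (0.134), MRPL34 for CLDN3 (0.0592), FBXO10 for CLDN4 (0.235), STXBP2 for CLDN7 (0.0906), OVOL2 for TJP1 (0.108), TARS1 for EPCAM (0.073) and PPDPF for GRHL2 (0.0595). Among the members themselves the closest pair was CLDN3 and TJP1 (0.252), both lower in HCC827-Del-TM, followed by CLDN7 and EPCAM (0.275). The SDs over the arrays were 0.341 for CLDN3, 0.340 for TJP1, 0.222 for CLDN7 and 0.210 for EPCAM. Genes that vary little lie near each other by this measure. The distance of CLDN7 and EPCAM exceeded the SD of either, and between control lines they differed in opposite directions (-0.36 and 0.25). CLDN1 and CLDN4 were the farthest apart (1.17). ELF3 was nearest to EPCAM (0.448) and farthest from CLDN1 (1.16). No other member was among the 5 nearest genes of ELF3.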

How the data were processed

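The authors' deposited table holds raw signal intensities per probe, not normalized between arrays (per the file headers and values), each with a detection p-value. The authors also deposited log2 values, quantile-normalized between arrays as their values show, which served as an alternative. The software used for them is not given in the sources. Signals were background-corrected with limma's nec (offset 16, with the noise taken from detection p-values), quantile-normalized and put on a log2 scale. A detection p under 0.01 on 3 or more of 12 arrays was required of a probe, which left 19833 of 47323. For each of 11808 genes the brightest kept probe was tested. The filter did not favour a direction for the members, since each tested probe was detected on at least 11 arrays. Of the listed genes, CLDN11, DSG3 and NECTIN4 passed it only through the group where they were high.

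Group means were fitted with lmFit and eBayes (R 4.3.3, limma 3.58.1), and 5 contrasts were adjusted by Benjamini-Hochberg over all genes (over all kept probes for the other EPCAM and TJP1 probes). P-values are two-sided. The model was run on simulated data with independent noise and few changed genes, equal in both directions, for the treatment of HCC827-Del alone. Far more genes were called on the real arrays, so that run does not test the calls or scalings here. Where a group was undetected on all its arrays, a fold is a lower bound against the lowest detected signal on each of those arrays. Symbols came from the platform's annotation, updated through Entrez IDs. Promoter windows are RefSeq's (GRCh38.p14); none is given here for EPCAM, F11R or GRHL2.

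The members and lists were chosen with earlier results of these data known. All members were named with every probe, and for each list up to 4 called genes with the largest absolute change in a comparison. Those of the treatment comparisons are given for each list, except 1 gene not reported here, and those of the other comparisons in part. The 5 genes most like ELF3 and the 1 most like each other member were named. Alternatives were other scalings, background, detection and probe rules, variance models, only the groups compared, each array left out in turn, and the replicate number as a block.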

Additional observations from a re-analysis of the deposited data

Results flagged for a closer look

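For 4 of the 8 tested members the change after treatment differed between HCC827-Del-TM and HCC827-Del by the test of the difference itself. Of all genes, 20.3% were called more positive and 22.3% more negative in that test. ELF3 had the largest difference, 1.45 (adjusted p = 2.45e-07). CLDN7 differed by 0.65 (adjusted p = 0.000832) and CLDN3 by -0.39 (adjusted p = 0.0174). TJP1 differed by 0.38 on the tested probe (adjusted p = 0.0305) and by 0.19 on its other probe (adjusted p = 0.227). Groups of 3 arrays were not searched for outlying arrays.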

How the results depend on the processing

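Of 40 results on single members (8 genes in 5 comparisons), 24 kept their direction and their side of the threshold under all alternatives run, 12 crossed the threshold in at least 1, and the other 4, none of them called, changed sign. These were TJP1 in HCC827-Del-TM (0.016, but -0.057 under median scaling, -0.067 as the mean over its probes, and -0.067 to 0.059 with 1 array left out), CLDN1 between control lines (0.059, but -0.0066 under median scaling), CLDN3 in HCC827-Del (0.052, but -0.037 to 0.11 with 1 array left out) and GRHL2 for the difference (-0.027, but -0.10 to 0.045 with 1 array left out). Leaving out each of the 12 arrays in turn gave 5082 to 6065 genes called for treatment in HCC827-Del, 4802 to 5461 in HCC827-Del-TM, 3669 to 4308 between control lines, 6624 to 7475 between treated lines and 4325 to 4786 for the difference. The members called then numbered 1 to 1 higher and 2 to 4 lower in HCC827-Del, 3 to 3 higher and 1 to 2 lower in HCC827-Del-TM, 0 to 1 higher and 3 to 3 lower between control lines, 3 to 5 higher and 2 to 2 lower between treated lines, and 2 to 3 higher and 1 to 1 lower for the difference. Under median scaling 0 members were higher between control lines and 2 between treated lines. With only the groups compared, GRHL2 lost its call in HCC827-Del-TM (adjusted p = 0.0531), which left 1 member lower there. EPCAM lost its call between control lines (0.0562), which left 0 higher, and CLDN4 lost its call between treated lines (0.0811). With the replicate block 0 were higher between control lines (EPCAM at adjusted p = 0.0549), and no other call on a member changed. No pairing by replicate number was visible: 18 correlations of same-numbered deviations ran from -0.03 to 0.05. Of 36 comparisons, each among 3 arrays, 13 were best with the array's own number. This check cannot show that same-numbered cultures were handled apart. Median scaling moved the median of all genes to -0.18 between treated lines and -0.10 for the difference, and the share of called genes that were higher was 61.2% instead of 48.4% in HCC827-Del, 30.3% instead of 46.6% between treated lines and 32.2% instead of 47.6% for the difference. A block for the chip could not be run, as the labels and headers give none, and the difference was not fitted with only the groups compared, since it uses all 4 groups. CLDN4 had no value with detection on all 12 arrays. The cause of these shifts was not tested. Signal near background limits CLDN4 and OCLN.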
